A study of Rattus norvegicus with 6 samples.

Results

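This account covers the cytosolic and mitochondrial heat shock proteins of rat cardiac cultures labelled fibroblast, namely Hspa8, Hspb1, Hspd1, Hspe1, Hsp90ab1, Dnaja1 and Cryab. They were taken as every probe set whose platform annotation names exactly 1 gene, that gene being among these 7 by its current or an older symbol. The rule found 16 of the 8740 probe sets on the array, and they read 6 of the 7 genes. Hspa8, the constitutive cytosolic HSP70, had 0 such probe sets, because both of those annotated with it name a second gene, and it is not reported further. A probe set of Hspb1 that also names another gene was left out for the same reason. The cultures were primary cells from ventricles of Sprague-Dawley rats aged 1 to 2 days, grown in 6-well plates. Genes of heart muscle cells were bright in them, as given below, so the signals cannot be read as those of fibroblasts alone. The controls were 3 cultures given water, and the treated group was 3 cultures exposed over 24 h to pertussis toxin (PTX). This toxin of Bordetella bacteria modifies the inhibitory class of G proteins so that receptors no longer activate them, and the labels state no dose for it. Each culture was read on its own 1-colour Affymetrix array, and the only comparison of the design is PTX against control.

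Heat shock proteins are chaperones, which bind unfolded or partly folded proteins and keep them from aggregating. Members of the HSP70 family fold proteins in cycles of ATP hydrolysis that J-domain proteins such as Dnaja1 set off. HSP90 finishes the folding of kinases and steroid receptors, and the small heat shock proteins Hspb1 and Cryab hold unfolded proteins without using ATP. In mitochondria, Hspd1 forms the ring of the chaperonin and Hspe1 forms its lid. Many of these genes are induced by heat shock factor 1, which binds repeats of the bases GAA in alternating orientation. The heart is rich in small heat shock proteins, and Cryab is among the abundant transcripts of heart muscle cells.

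Matches to parts of that repeat near 3 of the measured genes or gene pairs are shown, because heat shock factor 1 binds the repeat. Whether these genes are induced together through the matches was not tested. The motifs searched were TTCNNGAA and GAANNTTC, each of which reads the same on both strands, in RefSeq windows of 300 bases (250 before to 50 after the start site, build GRCr8). Capitals mark the matches, and neighbouring matches overlap where they share bases. Hspd1 and Hspe1 lie next to each other on chromosome 9 on opposite strands, with annotated start sites 290 bases apart, so their windows overlap by 211 bases and hold the same 3 matches. The stretch shown for them lies at chr9:64084256-64084285 on the plus strand, which is the strand of Hspe1. The stretch of Dnaja1 lies at chr5:60638402-60638431 on the plus strand, and the 250 bases before the start site of Hspb1 lie at chr12:26432302-26432551 on the minus strand.
Hspd1 and Hspe1: gctcggTTCTAGAACCTTCCGGAAggcccc
Dnaja1: cgggccgggcgGAACTTTCCAGAAcgctcg
Hspb1: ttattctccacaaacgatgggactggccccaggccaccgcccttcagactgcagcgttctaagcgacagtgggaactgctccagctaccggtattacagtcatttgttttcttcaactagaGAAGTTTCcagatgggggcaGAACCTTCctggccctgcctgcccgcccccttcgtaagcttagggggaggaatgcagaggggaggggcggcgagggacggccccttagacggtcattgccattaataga
The 3 matches of Hspe1 begin 65, 60 and 55 bases before its start site, and those shown for Dnaja1 begin at bases 10 and 15 after its start site. Those of Hspb1 are apart from each other, at 129 and 109 bases before the start site. Its window holds 0 sites where both forms share 3 bases. The window of Hsp90ab1 holds 0 matches, which says only that these letters are not in that window. Of all 33469 windows in the RefSeq table, 15.9% hold TTCNNGAA or GAANNTTC, and 0.798% hold both forms sharing 3 bases, as Hspd1, Hspe1 and Dnaja1 do. A match is a description of the sequence, and binding of a factor was not measured here.

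No heat shock protein probe set passed the test between PTX and control, which was limma across 5244 probe sets with an adjusted p threshold of 0.05. The signals of Hspb1, Cryab, Hsp90ab1 and Hspd1 were on average slightly lower with PTX on all 12 of their probe sets, by log2 changes between -0.15 and -0.45. These genes were singled out after their values were seen, and 52.9% of all tested probe sets were negative. The direction did not hold for the dim probe set of Hspb1 without control replicate 1 (0.13), or for a probe set of Cryab after quantile or cyclic loess normalization (0.02 and 0.00). Hspe1 and Dnaja1 had no common direction among their probe sets. With all 6 arrays 0 of the 16 were called higher, against 0.0763% of all tested probe sets, and 0 were called lower, against 0%. At an unadjusted p under 0.05, 4 were lower, against 4.61% of all tested, and 1 was higher, against 7.97%. The groups did not overlap for 5 lower probe sets, against 10.6% of all tested, and for 1 higher probe set, against 12%. The smallest adjusted p among the members was 0.303, for Hspb1. Without control replicate 1, the array that stood apart, 1 member probe set was called higher, against 1.87% of all tested, and 0 were called lower, against 0.343%. In that fit 6 were lower at an unadjusted p under 0.05, against 5.7%, and 1 was higher, against 9.52%. The groups did not overlap for 7 lower probe sets, against 15.8% of all tested, and for 1 higher probe set, against 16.9%.

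Several properties of the arrays bear on these counts. Array medians ran from 63.1 to 68.85 signal units. Control replicate 1 correlated with the other arrays at a Pearson r of 0.952 to 0.960 in log2 signals over the whole array, against 0.978 to 0.985 among the others. Probe sets named rc_AA799 or rc_AA800 read low on it. The 375 tested ones had a median log2 change of 0.56, and 1 of them is a Dnaja1 probe set. Bright probe sets tended the other way: in the brightest 10% of those tested, without that class, 72.3% were negative, with a median log2 change of -0.14. The heat shock protein probe sets are mostly bright, with 14 of 16 above the 90th percentile of mean signal over the whole array. In the brightest 10% of those tested lay 11 of them, of which 10 were negative. Their median was -0.19, or -0.22 without control replicate 1, against -0.14 and -0.09 for that 10% without the class. Of all heat shock protein probe sets outside the class, 14 of 15 were negative, with a median of -0.21. Without control replicate 1 this was 12 of 15, with a median of -0.18. The labels do not say whether the cultures of a group came from separate isolations, so the p-values speak only of the variation among these 6 cultures, part or all of which may be technical.

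**Figure D1:**
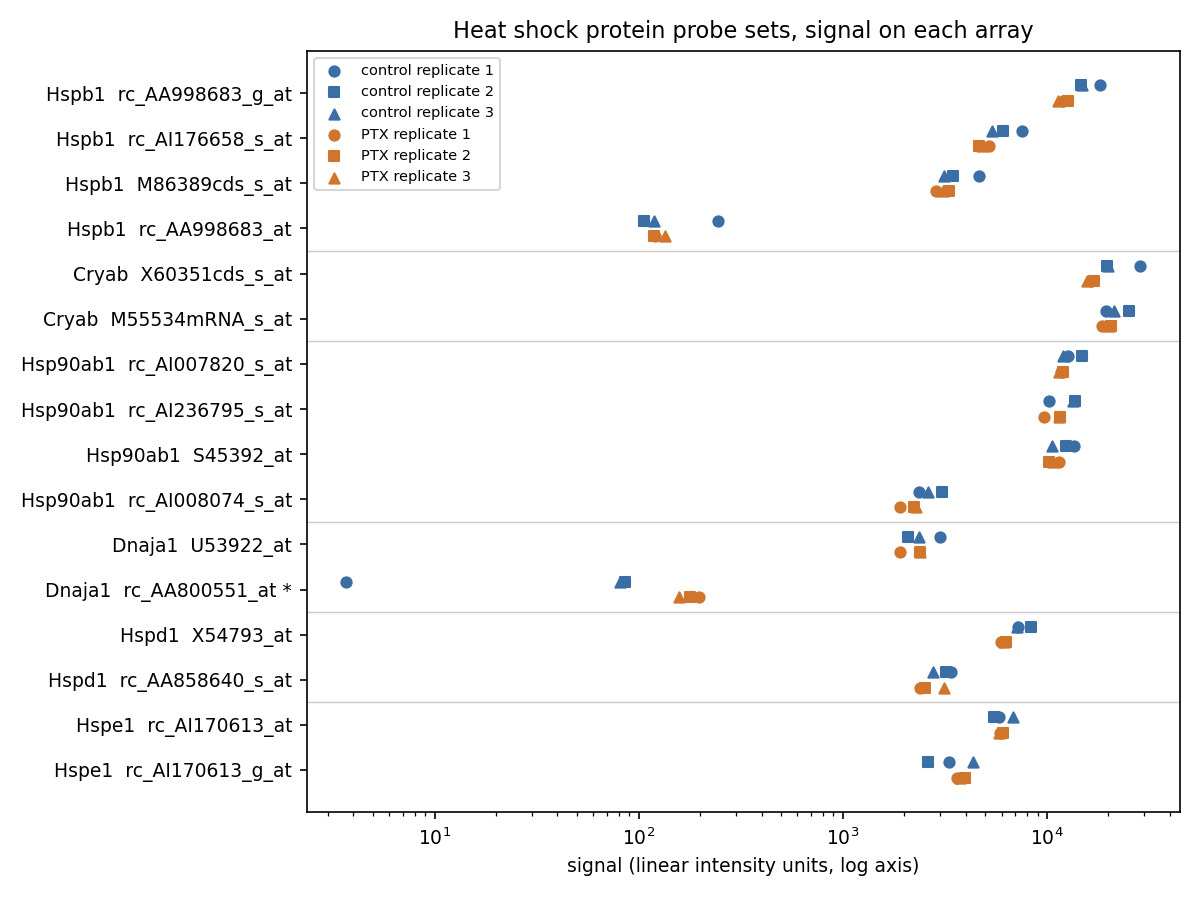
Signal (linear intensity units on a log axis) of the 16 heat shock protein probe sets on each array, with controls in blue, PTX in orange and the marker shape giving the replicate number. The asterisk marks the Dnaja1 probe set of the class that read low on control replicate 1, where its signal was 3.7.

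Hspb1 encodes the small heat shock protein known as HSP25 in rodents and HSP27 in humans, which also binds actin filaments. Its probe set rc_AA998683_g_at had signals of 18123.2, 14738.2 and 14923.9 in control replicates 1, 2 and 3 and of 12037.4, 12754.9 and 11333.3 in PTX replicates 1, 2 and 3. All 3 PTX arrays lay below all 3 controls, and control replicate 1 was the highest. The mean was 15928 ± 1903 in the controls and 12042 ± 711 with PTX (SD, n = 3 each), a ratio of 0.759 and a log2 change of -0.40 ± 0.12 (SE; limma adjusted p = 0.303). Without control replicate 1 the log2 change was -0.30 (limma adjusted p = 0.157).

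The probe set rc_AI176658_s_at of Hspb1 read 7535.4, 6067.9 and 5371.5 in the controls and 5199.7, 4671.2 and 4827.2 with PTX. Here too the groups did not overlap, and control replicate 1 was again the highest array. The log2 change was -0.35 ± 0.15 (limma adjusted p = 0.390), or -0.22 without that array (limma adjusted p = 0.342). The probe set M86389cds_s_at read 4659.9, 3454.3 and 3147.1 in the controls and 2847.7, 3310.5 and 3096.8 with PTX. Its groups overlapped, since PTX replicate 2 lay above control replicate 3, and its log2 change of -0.26 became -0.10 without control replicate 1. The dim probe set rc_AA998683_at read 244.7 in control replicate 1 and 105.7 to 134.1 on the other 5 arrays. Its log2 change was -0.21, or 0.13 without that control. All 4 probe sets of Hspb1 therefore had their highest signal on control replicate 1, and 2 of the 4 kept non-overlapping groups without it.

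Cryab encodes alpha B-crystallin, a small heat shock protein of lens, heart and skeletal muscle. Its probe set X60351cds_s_at read 28607.5, 19596.2 and 19865.0 in the controls and 16431.8, 17104.0 and 15676.2 with PTX. Every PTX array lay below every control, and control replicate 1 stood above the other controls. The mean went from 22690 ± 5127 to 16404 ± 714, a ratio of 0.734 and a log2 change of -0.45 ± 0.16 (limma adjusted p = 0.350), or -0.27 without control replicate 1 (limma adjusted p = 0.201). The other probe set, M55534mRNA_s_at, read 19553.3, 25254.1 and 21425.7 in the controls and 18645.1, 20536.6 and 20123.9 with PTX. On it control replicate 1 was the lowest control and lay below 2 of the PTX arrays, so the groups overlapped. Its log2 change was -0.15 ± 0.12 (limma adjusted p = 0.591), or -0.24 without control replicate 1, and it was 0.02 after quantile and 0.00 after cyclic loess normalization. The probe sets of Cryab hence ordered the controls differently, and their Pearson r over the 6 arrays was 0.05 on the log2 scale. Without control replicate 1 both had non-overlapping groups.

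Hspb2 is another small heat shock protein of heart and skeletal muscle and the coding gene next to Cryab in the RefSeq table. Of the small heat shock proteins outside the members, it had the smallest p and the highest signal. Its brighter probe set, U75899mRNA_g_at, read 4352.6, 2877.8 and 2894.9 in the controls and 2361.1, 2658.9 and 2407.9 with PTX, with no overlap. The log2 change was -0.42 (limma adjusted p = 0.397), or -0.22 without control replicate 1, and the other probe set had -0.46 (limma adjusted p = 0.307), or -0.34 without that array. Hspb6, a small heat shock protein of muscle, had 3168 ± 380 and 2667 ± 110 with no overlap (log2 change -0.24, limma adjusted p = 0.450; -0.15 without control replicate 1). Cryaa, the lens crystallin related to Cryab, was dim, with means of 65.0 and 59.3 and overlapping groups. All 3 tested small heat shock protein genes outside the members were thus negative and 0 passed; without control replicate 1, 2 of the 3 were negative.

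Markers of heart muscle cells were also lower in sum on the PTX arrays. The summed signal of the 16 tested cardiomyocyte markers was 340129 to 437743 in the controls, highest on control replicate 1, and 295411 to 333440 with PTX, without overlap. The probe sets of 2 of them, Nppb and Actn2, are of the class low on control replicate 1. Actn2 read 1449 there and 9843 to 11409 on the other arrays. Of the 16, 12 had negative log2 changes, with a median of -0.18, or -0.09 without control replicate 1, and 0 passed. These values are near those of the brightest 10% of tested probe sets outside the class (72.3% negative, median -0.14, or -0.09 without that control). The other 4 cardiomyocyte markers were Actn2 (1.02), Pln (0.20), Myl7 (0.12) and Csrp3 (0.01). Without control replicate 1, Csrp3 was at -0.05, and Atp2a2 went from -0.04 to 0.16. The 13 tested fibroblast markers summed to 97997 to 116807 in the controls and 100493 to 104564 with PTX, and 6 of the 13 were negative. The largest log2 changes among them were those of Lum (1.10), Postn (1.07) and Thy1 (-0.97), each without overlap, and 0 of the 13 passed. Without control replicate 1, Lum (0.74, limma adjusted p = 0.00646) and Thy1 (-0.95, limma adjusted p = 0.00771) passed. The 6 tested macrophage and leukocyte markers summed to 3395 to 3515 in the controls and 4227 to 5372 with PTX. Most of this sum was Lyz2, with 2139 to 2517 in the controls and 2908 to 4150 with PTX. The largest log2 change among them was 0.88 for Fcgr2b, with 297.5 to 353.8 in the controls and 591.5 to 647.6 with PTX (limma adjusted p = 0.0876). Without control replicate 1 Fcgr2b passed (0.88, limma adjusted p = 0.00771). Of the 6, 2 were negative, namely C1qb (-0.39) and C1qc (-0.24). The 5 smooth muscle markers summed to 22708 to 24929 and 22931 to 23855, and the 2 endothelial markers to 125 to 174 and 101 to 146. None of the 42 tested markers had a signal of 0 on any array. Tested markers had passed a filter on mean signal, without detection calls, so the lack of signals of 0 alone does not show that a cell type was present. The cardiomyocyte markers were bright, however, from Myl7 at the 88.8th to Myl2 at the 99.98th percentile of mean signal over the whole array. Myl2 read 37956 to 69880 over the 6 arrays. The cultures labelled fibroblast thus held much RNA of cardiomyocyte genes. The part of these cell types in the small heat shock protein signals was not tested, and in bulk cultures fewer cells of a type and less RNA per cell cannot be told apart.

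**Figure D2:**
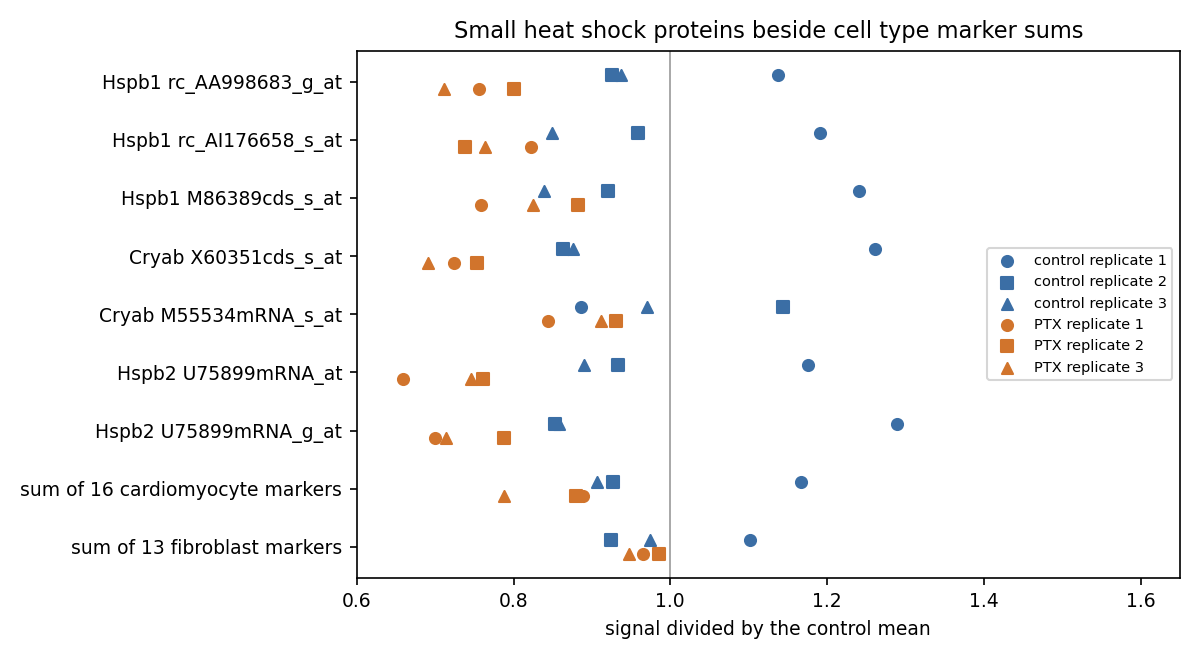
Signal of each array divided by the mean of the 3 controls, for the brighter Hspb1 probe sets, both Cryab and both Hspb2 probe sets, and the summed signals of 16 cardiomyocyte and 13 fibroblast markers. Control replicate 1 (blue circle) is the highest array in every line except that of Cryab M55534mRNA_s_at, and the PTX arrays (orange) lie below the controls for both Hspb2 probe sets, Cryab X60351cds_s_at, 2 of the Hspb1 probe sets and the cardiomyocyte sum.

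Hsp90ab1 encodes the constitutive cytosolic HSP90. Its probe set rc_AI008074_s_at read 2368.7, 3046.7 and 2620.3 in the controls and 1914.2, 2232.0 and 2285.3 with PTX. The groups did not overlap, although the highest PTX array lay close to control replicate 1. The log2 change was -0.32 ± 0.14 (limma adjusted p = 0.417), or -0.40 without that control (limma adjusted p = 0.133). The brightest probe set, rc_AI007820_s_at, read 12683.3, 14793.0 and 11953.5 in the controls and 11781.4, 11958.6 and 11422.5 with PTX. These groups overlapped by a small margin, control replicate 3 lying just below PTX replicate 2, and the log2 change was -0.16 ± 0.12. The probe set S45392_at read 13543.9, 12461.9 and 10609.6 against 11447.5, 10292.3 and 10722.7, and the probe set rc_AI236795_s_at read 10273.3, 13678.9 and 13423.4 against 9656.4, 11580.5 and 11432.1. Both had overlapping groups, with log2 changes of -0.17 and -0.19. Control replicate 1 was the highest control on the former and the lowest on the latter, and leaving it out gave -0.09 and -0.32. All 4 probe sets were thus negative with and without that array, and none passed in either case. After cyclic loess normalization the log2 change was -0.28 on rc_AI008074_s_at. It was then only -0.03 on rc_AI007820_s_at, -0.06 on rc_AI236795_s_at and -0.04 on S45392_at.

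Among HSP90 and its cochaperones outside the members, 7 of 20 listed genes were tested, 5 were negative with a median log2 change of -0.17, and 0 passed. The median was -0.02 without control replicate 1. Cdc37, which brings kinases to HSP90, was the brightest, with 3210 ± 537 and 2700 ± 189 (log2 change -0.24, limma adjusted p = 0.498; -0.11 without control replicate 1). St13, which binds HSP70, had the smallest p among the lower ones (-0.27, limma adjusted p = 0.473; -0.15 without control replicate 1). Chordc1, an HSP90 binding protein, had signals of 244 ± 63.9 and 345 ± 28.7 without overlap and a log2 change of 0.50 (limma adjusted p = 0.377), or 0.32 without control replicate 1.

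Dnaja1, a J-domain partner of HSP70, gave opposite readings on its probe sets. On U53922_at the signals were 3011.1, 2077.1 and 2370.0 in the controls and 1907.6, 2400.3 and 2391.6 with PTX. The groups overlapped, with control replicate 1 highest, and the log2 change was -0.14 ± 0.17 (limma adjusted p = 0.706), or 0.00 without control replicate 1. On rc_AA800551_at, of the class that read low on that array, the signals were 3.7, 86.0 and 80.7 in the controls and 198.1, 178.9 and 158.0 with PTX. All PTX arrays were above all controls, with or without control replicate 1. The log2 change, on the scale log2(signal + 16), was 1.74 ± 0.58 (limma adjusted p = 0.324). Without control replicate 1 it was 0.96 (limma adjusted p = 0.0217), which made it the only heat shock protein probe set to pass in that fit. In that fit 50 of the 98 calls of higher probe sets were among the 375 probe sets of its class, whose median was then 0.27. Over the 6 arrays the Pearson r between the 2 Dnaja1 probe sets was -0.78 on the log2 scale. The higher reading thus rests on the dimmer probe set, and the brighter one had overlapping groups.

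Of the other HSP70, HSP110 and J-domain genes, 10 of 27 listed were tested, 7 were negative with a median log2 change of -0.12, and 0 passed. Dnaja2, a relative of Dnaja1, was the brightest and had the smallest p among the lower ones, with 2210 ± 136 and 1800 ± 191 without overlap (log2 change -0.30, limma adjusted p = 0.409). Without control replicate 1 it was -0.28. Its probe set rc_AI170685_g_at had -0.38 without overlap, or -0.27 without that array. U95727_at had -0.05 with overlap, but -0.38 without overlap when control replicate 1, its lowest array, was left out (limma adjusted p = 0.123). Hspa1a, the stress-inducible HSP70 with a near-identical copy in Hspa1b that the array may not separate, was dim, with 112 ± 35.4 and 76.6 ± 7.01 and overlapping groups (log2 change -0.43, limma adjusted p = 0.451; -0.22 without control replicate 1). Dnajb1, a heat-inducible J-domain protein, had 905 ± 67.6 and 792 ± 26.2 without overlap (-0.19, limma adjusted p = 0.520). The probe sets of Dnaja4, another J-domain protein, also differed in size of change. Its probe set rc_AA799570_at, of the class low on control replicate 1, read 214.4, 493.8 and 446.8 in the controls and 768.4, 660.8 and 683.4 with PTX. Its log2 change of 0.92 (limma adjusted p = 0.303) was 0.57 without control replicate 1 (limma adjusted p = 0.0435), while the probe set AA848268_at had 0.06, or -0.01 without that array, with overlapping groups.

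**Figure D3:**
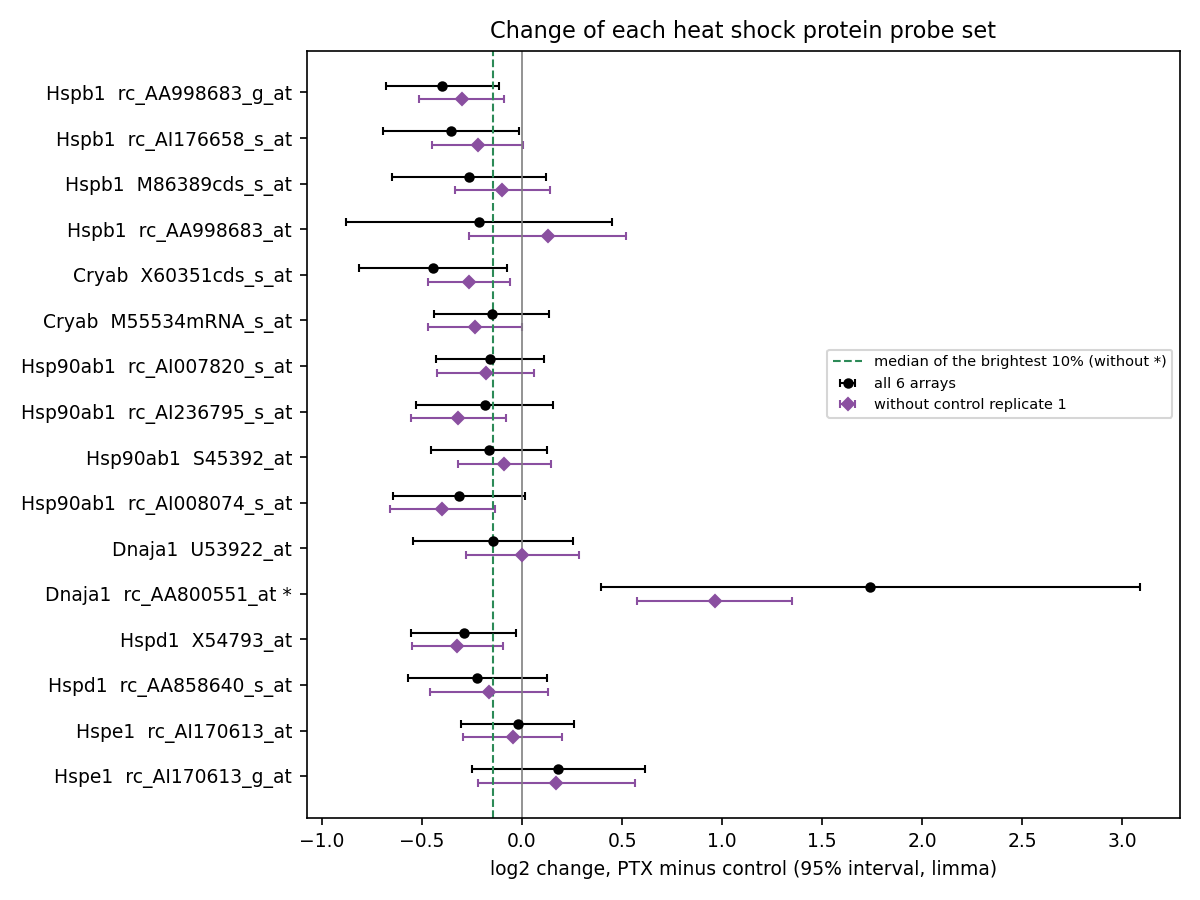
Log2 change of each heat shock protein probe set, PTX minus control, with its 95% interval from limma, for all 6 arrays (black circles) and without control replicate 1 (purple diamonds). The dashed line is the median of the brightest 10% of tested probe sets without the marked class, at -0.14; the asterisk marks Dnaja1 rc_AA800551_at, at 1.74 and 0.96.

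Hspd1 and Hspe1, the ring and the lid of the mitochondrial chaperonin, share the sites printed above and were read by 2 probe sets each. Hspd1 on X54793_at read 7215.0, 8331.4 and 7146.2 in the controls and 5973.5, 6323.7 and 6196.9 with PTX. The groups did not overlap, and control replicate 1 lay close to control replicate 3. The mean went from 7564 ± 665 to 6165 ± 177, a ratio of 0.817 and a log2 change of -0.29 ± 0.11 (limma adjusted p = 0.367), or -0.32 without control replicate 1 (limma adjusted p = 0.156). The other Hspd1 probe set, rc_AA858640_s_at, read 3379.2, 3209.3 and 2781.6 against 2386.9, 2517.7 and 3148.9. PTX replicate 3 lay within the range of the controls, and the log2 change was -0.22 ± 0.15 (limma adjusted p = 0.521).

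Hspe1 on rc_AI170613_at read 5815.5, 5494.1 and 6820.1 in the controls and 5901.3, 6070.0 and 5804.8 with PTX. The PTX arrays lay inside the range of the controls, and the log2 change was -0.02 ± 0.12, with a 95% interval of -0.30 to 0.26 (limma adjusted p = 0.946). On rc_AI170613_g_at it read 3301.7, 2607.3 and 4357.6 against 3648.0, 3984.6 and 3773.6. Again the PTX arrays lay within the controls, with a log2 change of 0.18 ± 0.19 and an interval of -0.25 to 0.61 (limma adjusted p = 0.665). Control replicate 3 was the highest and control replicate 2 the lowest on both. The difference in log2 change between Hspd1 and Hspe1 was -0.20 to -0.47 over the 4 pairings of their probe sets, a comparison chosen after the values were seen. No pairing separated the groups, and the two-sided exact permutation p was 0.2 to 0.3, a test that with 3 against 3 arrays cannot go below 0.1 and so leaves the difference undecided.

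Of the other mitochondrial chaperones and proteases, 5 of 13 listed genes were tested, 4 were negative with a median log2 change of -0.14 (-0.22 without control replicate 1), and 0 passed. Phb2, a prohibitin of the inner membrane, was the brightest, with 3739 ± 367 and 3384 ± 68.4 and overlapping groups (-0.14, limma adjusted p = 0.612). Without control replicate 1 its groups did not overlap (-0.22, limma adjusted p = 0.296). Dnaja3, the mitochondrial J-domain protein, had the smallest p among the lower genes (-0.19, limma adjusted p = 0.607; -0.08 without control replicate 1). Trap1, the mitochondrial HSP90, had 0.07 (limma adjusted p = 0.838), or 0.16 without that array. Hspa9, the mitochondrial HSP70, had 1707 ± 360 and 1489 ± 395 with overlapping groups (-0.21, limma adjusted p = 0.686; -0.34 without control replicate 1). Of the cytosolic chaperonin and prefoldin, 3 of 13 listed genes were tested and 0 passed. Pfdn2, a prefoldin subunit, had a log2 change of -0.23 (limma adjusted p = 0.686), or 0.08 without control replicate 1. Cct3, a subunit of that chaperonin, had 0.66 on a probe set of the class low on control replicate 1, where it read 363.3 against 1828 to 2451 on the other 5 arrays, and -0.20 without that array.

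Hsf1, the factor that induces heat shock genes, had 484 ± 137 and 421 ± 39.1 with overlapping groups (log2 change -0.16, limma adjusted p = 0.718; 0.05 without control replicate 1). The list of heat shock factors and other heat-inducible genes had 7 of 11 genes tested, with 4 negative and 0 passing. In it Fos, an immediate early transcription factor, had the smallest p among the lower genes (-0.39, limma adjusted p = 0.428; -0.26 without control replicate 1). Hmox1, the inducible heme oxygenase, had the smallest p among the higher ones, with 0.21 on its brighter and -0.14 on its other probe set, or 0.28 and 0.05 without control replicate 1. Serpinh1, the collagen chaperone of the endoplasmic reticulum, was the brightest, with 4883 ± 2137 and 4998 ± 273 (0.15, or -0.29 without control replicate 1). Over the 6 lists together, 35 genes were tested, each by its brightest probe set. Of these 24 were negative, with a median of -0.16, and 0 passed in either direction; without control replicate 1, 22 were negative, with a median of -0.11, and 1, Dnaja4, passed.

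**Figure D4:**
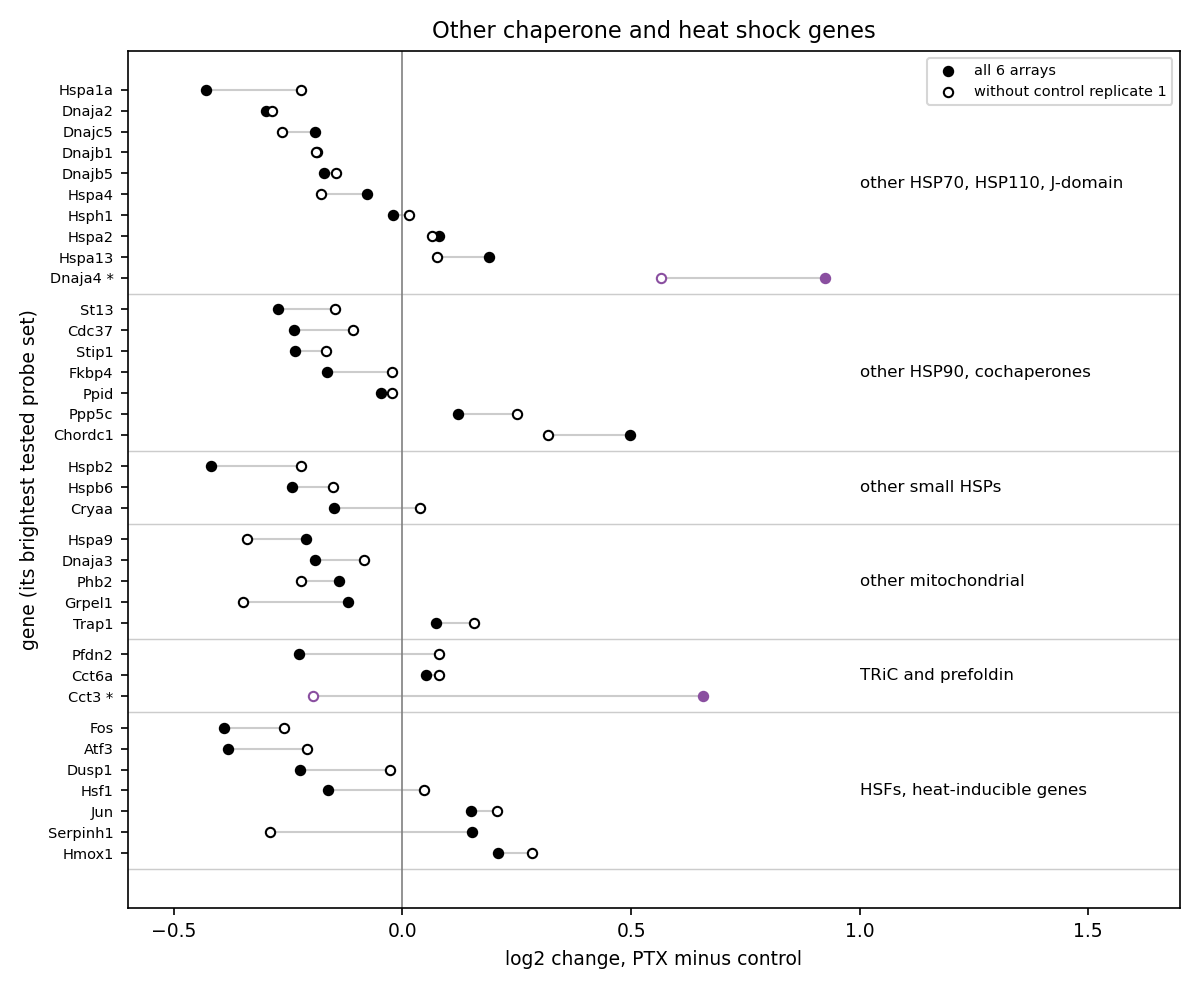
Log2 change, PTX minus control, of the 35 other chaperone and heat shock genes tested, each by its brightest probe set, with all 6 arrays (filled) and without control replicate 1 (open). Asterisks and purple mark Dnaja4 and Cct3, whose probe sets are named rc_AA799, and these are the genes with the highest values with all 6 arrays.

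The precision of the arrays bounds these changes. For all 15 heat shock protein probe sets outside the class low on control replicate 1, the 95% interval of the log2 change lay between -1 and 1, that is within 2-fold in either direction. The ratios of PTX to control on these 15 ran from 0.734 for Cryab to 1.13 for Hspe1. Intervals were not adjusted for the number of probe sets, and most of them also hold 0.

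Among probe sets of other genes, those most like each member in their pattern over the 6 arrays were found by the Pearson r of log2 values, given as a description of 4365 probe sets that share the same arrays. For Hspb1 they were those of Tmem214 and Arhgap10 (r = 0.996 and 0.994), and 47 probe sets exceeded an r of 0.95. For Hspd1 they were those of Lgals9 and Ppp1r15a (0.988 and 0.986). For Dnaja1 on U53922_at they were Sncb and Aldh7a1 (0.999 and 0.996), for Hsp90ab1 Fkbp2 and Ndufs6 (0.991 and 0.963), for Cryab on M55534mRNA_s_at Smad2 and Dedd (0.979 and 0.972), and for Hspe1 Stx4 and Ptprr (0.956 and 0.949). Between members, Cryab on X60351cds_s_at had r = 0.80 to 0.97 with the 4 Hspb1 probe sets, whereas Cryab on M55534mRNA_s_at had -0.45 to 0.23 with the same 4. Control replicate 1 was the highest array on X60351cds_s_at and on all 4 Hspb1 probe sets, so the high r rests in part on that array. The r without it was not computed.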

How the data were processed

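Total RNA of 6 cultures was biotin-labelled and hybridised to 1 array each, per the labels' protocols. The authors used GCOS, the Affymetrix software, per the submitters' processing notes, which give no version, scaling target or detection calls. Deposited values are linear intensities. Their 2% trimmed means lay between 492.9 and 494.8 per array, so no scaling was added. Arrays with identical values were not found, and 0 further columns of per-sample values were found. Names come from the platform annotation (7006 of 8740 name 1 gene, 308 several and 1426 none), and 6985 symbols were updated through Entrez identifiers with the RefSeq table of GRCr8. Promoter windows come from RefSeq. The arrays have no genome build, so coordinates are given only for those windows.

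The scale was log2(signal + 16), on which the fold change of a low signal is understated. Probe sets with a mean under the 40th percentile were left out; all 16 heat shock protein probe sets stayed. The groups were compared by limma (version 3.58.1, R version 4.3.3; lmFit, then eBayes with a trend on intensity) in two-sided tests, and Benjamini-Hochberg adjustment ran over all tested probe sets. Errors after ± are SDs of signals or moderated SEs of log2 changes. The procedure was tested on simulated data. Genes outside the members were represented by their brightest tested probe set, and those named are, for each list, the smallest p in each direction and the highest signal, and for each member the 2 most similar probe sets; Hspa1a, Dnajb1, Hspb6, Cryaa, Hspa9 and Hsf1 were added after their values were seen. The members and lists were chosen with earlier results of these data known. Alternatives were a pseudocount of 1 or 64, filtering at the 60th percentile or not at all, 3 scalings between arrays, a block for the replicate number, robust variances, omission of the trend, array quality weights, removal of the rc_AA799 and rc_AA800 probe sets, and each array left out in turn.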

Additional observations from a re-analysis of the deposited data

How the results depend on the processing

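Of the 286 log2 changes of heat shock protein probe sets computed under the 18 alternatives, 276 kept their direction and their side of the threshold, 9 changed sign and 1 passed. The one that passed was Dnaja1 on rc_AA800551_at without control replicate 1 (0.96, limma adjusted p = 0.0217); over the other alternatives its adjusted p was 0.091 to 0.684. The sign changes were of Dnaja1 on U53922_at with array quality weights (0.016) and without control replicate 1 (0.0013), of Hspb1 on rc_AA998683_at in the same fits (0.071 and 0.13), of Cryab on M55534mRNA_s_at with quantile (0.018) and cyclic loess normalization (0.0045), and of Hspe1 on rc_AI170613_at with quantile (0.0082) and cyclic loess normalization (0.066) and without control replicate 3 (0.068). Over the fits that left out 1 array, these ran from -0.26 to 0.0013 for Dnaja1, from -0.42 to 0.13 for Hspb1 and from -0.088 to 0.068 for Hspe1. With either normalization 12 of the 16 were negative, with a median of -0.17 after quantile and -0.14 after cyclic loess normalization. The median over the 16 was -0.20, from -0.28 without control replicate 3 to -0.17 without control replicate 1 over the fits that left out 1 array, and in these the count of heat shock protein probe sets called higher was 0 to 1.

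Over all tested probe sets, 4 were called higher and 0 lower (418 and 242 at an unadjusted p under 0.05). With a pseudocount of 1 or 64, 2 and 7 were higher; with quantile normalization 2; with robust variances 9; without the rc_AA799 and rc_AA800 probe sets 8; with array quality weights 66 higher and 15 lower; and without a trend 0 by limma, with 615 at an unadjusted p under 0.05. Leaving out 1 array gave 0 to 98 higher and 0 to 18 lower, the most without control replicate 1, 29 higher without control replicate 3, and 0 by limma when PTX replicate 1, 2 or 3 was left out (360, 375 and 376 at an unadjusted p under 0.05). The cause of these differences was not tested.

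With the replicate number as a block 0 probe sets were called by limma (552 at an unadjusted p under 0.05), and 0 of the members (4 at an unadjusted p under 0.05). Same-numbered arrays did not deviate together from their group means (r = -0.093, -0.11 and -0.0080), so the numbers were not taken to pair the samples. The number of arrays limits the precision, and the signals of Dnaja1 on rc_AA800551_at, at 3.7 on control replicate 1, lie near the low end, where no detection call was used.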
